A study of Mus musculus with 2 samples.

Results

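Gas6, protein S and their receptors were read in single cells of healthy mouse liver. The set holds 6 of the 22508 genes of the count table: the ligand genes Gas6 and Pros1 (protein S), the receptor tyrosine kinase genes Axl, Mertk and Tyro3, and Timd4. They were chosen by name, not by a measured value. All 6 have a row in the table.

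Gas6 and protein S are secreted proteins that need vitamin K-dependent carboxylation to bind phosphatidylserine, the lipid that dying cells expose. With their other end they bind receptors of the TAM family, which holds Tyro3, Axl and Mertk. A phagocyte then takes up the dying cell and its inflammatory signalling is damped. The ligands do not share all receptors, and which ligand binds which receptor was not read here. Tim-4, the product of Timd4, binds phosphatidylserine directly and is a well-known marker of resident Kupffer cells, the macrophages of the liver sinusoid. Protein S also circulates in plasma as a cofactor of the anticoagulant proteins C and TFPI.

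The study has 1 group, WT, with 2 samples from C57BL/6 mice of 8 weeks. The livers were dissociated with enzymes, the cells passed through a Percoll gradient, and 3' libraries were made with 10x Chromium chemistry. No treatment, allele or second genotype was part of the design, and nothing in the labels says that the samples came from separate animals. No test between groups was therefore possible, and all intervals are exact 95% intervals that cover counting error only.

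WT replicate 1 held 6765 cells after filtering (median 4719 unique molecules, UMIs, per cell) and WT replicate 2 held 2341 (median 5012). Cell classes were set by UMIs of marker genes outside the set. Replicate 1 held 2509 cells in the Kupffer gate (Clec4f, Vsig4, Cd5l), 2396 in the sinusoidal endothelial gate (Stab2, Clec4g, Oit3), 128 T cells, 120 mesothelial cells, 86 cholangiocytes, 85 portal fibroblasts and 75 hepatocytes. A further 42 cells passed the vein and artery endothelial gate and 82 passed both endothelial gates. Stellate cells (Lrat, Reln, Colec11) numbered 2088 in replicate 2 and 8 in replicate 1, so each class rests on 1 library and a class difference between stellate and other cells cannot be told apart from a difference between libraries. 5 barcodes occur with both library endings and were kept as separate cells. Every gate marker in the table was detected in its own class. In replicate 2 the gate marker Fcna stood apart from the other Kupffer markers. It was at 2163 CPM (UMIs per 1000000 UMIs of the class) in stellate cells and 1927 CPM in Kupffer cells of replicate 1. The other 5 Kupffer markers ranged from 2.55 to 28.5 CPM in stellate cells. In replicate 2, 247 cells with most marker UMIs on the stellate and Kupffer sets were left out as mixed. The 252 mixed cells of replicate 2 held Fcna at 5054 CPM and the other 5 Kupffer markers at 3.11 to 39.6 CPM. Without Fcna in the gates 2 mixed cells remained there. The T class of replicate 1 (median 3424 UMIs) served as the reading of RNA from outside the cell, since T cells should lack most of these genes. Replicate 2 had no T class, so no such reading exists for that library.

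The 3 receptor genes with their highest level in the Kupffer gate are shown here by the 250 bases before the RefSeq start, 5′ to 3′ on the strand of the gene (GRCm38.p6). They are chr7:25788734-25788983 on the minus strand for Axl, chr2:128698665-128698914 on the plus strand for Mertk and chr11:46810549-46810798 on the plus strand for Timd4. Capitals mark matches on either strand to a PU box core (GAGGAA, a motif bound by the macrophage factor PU.1) or to a GC box (GGGCGG, bound by Sp1).
Axl: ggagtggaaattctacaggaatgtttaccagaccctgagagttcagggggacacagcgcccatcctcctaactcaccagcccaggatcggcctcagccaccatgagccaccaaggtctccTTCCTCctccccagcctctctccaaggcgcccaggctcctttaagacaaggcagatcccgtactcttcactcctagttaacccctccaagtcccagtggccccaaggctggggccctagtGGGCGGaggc
Mertk: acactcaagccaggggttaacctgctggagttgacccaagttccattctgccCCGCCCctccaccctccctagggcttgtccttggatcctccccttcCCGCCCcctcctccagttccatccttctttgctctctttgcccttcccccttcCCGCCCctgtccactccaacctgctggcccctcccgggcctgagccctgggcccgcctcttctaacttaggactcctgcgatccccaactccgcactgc
Timd4: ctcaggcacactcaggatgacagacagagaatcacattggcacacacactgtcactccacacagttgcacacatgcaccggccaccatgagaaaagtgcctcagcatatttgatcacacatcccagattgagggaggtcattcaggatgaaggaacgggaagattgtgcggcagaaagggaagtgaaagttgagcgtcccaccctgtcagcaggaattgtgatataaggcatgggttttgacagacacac

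The Axl window has 1 match to the PU box core and 1 GC box, the Mertk window 3 GC boxes and no PU box core, and the Timd4 window neither. Over the 32851 promoter windows of the same length in the RefSeq table, 23.3% hold the PU box core and 32.7% the GC box. Gas6, Pros1 and Tyro3 windows hold 4, 5 and 3 GC boxes and no PU box core. A match is a run of letters and was not tested as a binding site.

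On the annotated genome (GENCODE release M21, GRCm38) Gas6 lies on chromosome 8 from 13465374 to 13494490 and overlaps Tmem255b on the opposite strand. Pros1 lies on chromosome 16 from 62854307 to 62929346, Axl on chromosome 7 from 25757273 to 25788705, Tyro3 on chromosome 2 from 119797733 to 119818104, and Timd4 on chromosome 11 from 46810800 to 46844332. Mertk lies on chromosome 2 from 128698956 to 128802894 and overlaps the antisense gene Gm14011 and the small nucleolar RNA gene Gm23172. In replicate 1 Tmem255b had 72 UMIs, Gm14011 had 3 and Gm23172, on the same strand as Mertk, had 24. Gas6 had 12836 and Mertk 9270 there. Each of the overlapping genes had 0 in replicate 2. Whether the counting used strand is not given in the sources used here.

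The ligand Gas6 was highest in mesothelial cells, the sheet that covers the liver, and in cholangiocytes, the bile duct epithelium. Levels are given in CPM, and 3' counts carry no gene length, so levels are compared between classes and not between genes. Mesothelial cells held 2541 Gas6 UMIs, 1533 CPM (1474 to 1594), with a UMI in 120 of 120 cells. Cholangiocytes held 1697 UMIs, 1285 CPM (1224 to 1347), with a UMI in 86 of 86 cells. The mesothelial level was 1.19-fold the cholangiocyte level (1.12 to 1.27).

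Portal fibroblasts, the collagen-producing cells around the portal vein, followed at 939 CPM (864 to 1019) in 581 UMIs, and here Gas6 was uneven. 28 of 85 cells had no Gas6 UMI, the highest cell had 78, and the 9 cells with most Gas6 held 64.2% of the class total. In mesothelial cells the lowest cell had 4 UMIs and the 12 highest held 26.6%. The portal fibroblast gate thus joined cells with many and cells with no Gas6 molecules.

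Among classes of 20 or more cells, 3 endothelial classes came next. Sinusoidal endothelial cells held 4785 Gas6 UMIs, 362 CPM (352 to 373), with a UMI in 73.0% of cells (71.2 to 74.8). Cells in both endothelial gates reached 320 CPM (282 to 361) and vein and artery endothelial cells 263 CPM (214 to 321). The intervals of neighbours in this order overlap. The 17 lymphatic endothelial cells held 38 Gas6 UMIs, 381 CPM (270 to 523), an interval that holds the sinusoidal level.

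Gas6 was lower in the other classes of 20 or more cells, while the 15 smooth muscle cells held 22 UMIs (216 CPM, 136 to 328). Stellate cells held 382 Gas6 UMIs, 36.1 CPM (32.6 to 39.9), with a UMI in 14.6% of cells, and Kupffer cells 316 UMIs, 26.5 CPM (23.6 to 29.6), with a UMI in 8.53%. 4 of the 2509 Kupffer-gate cells had 5 or more Gas6 UMIs and held 19.3% of the class total. Hepatocytes held 9 UMIs (13.8 CPM), T cells 1 (1.99 CPM), B cells 1 and neutrophils 0 of 65847 UMIs, which allows up to 45.6 CPM.

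Gas6 in stellate cells stood beside endothelial RNA in the same cells. The endothelial genes Kdr, Egfl7 and Ptprb together reached 554 CPM in the stellate class of replicate 2. In replicate 1 they reached 8392 CPM in sinusoidal endothelial cells and 51.9 CPM in T cells. Per 1000 UMIs of these 3 genes there were 65.2 Gas6 UMIs in stellate cells and 43.2 in sinusoidal endothelial cells. In the 140 stellate cells with no UMI of these genes or of the sinusoidal gate markers, Gas6 was at 26.1 CPM (14.3 to 43.8), an interval that overlaps that of the class. In the 994 Kupffer cells chosen the same way it was at 22.5 CPM (17.9 to 27.9).

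Protein S had another order. Pros1 was highest in sinusoidal endothelial cells, at 5648 UMIs, 428 CPM (417 to 439), with a UMI in 83.3% of cells. Cells in both endothelial gates followed at 258 CPM (224 to 295), and vein and artery endothelial cells were lower, at 82.5 CPM (56.0 to 117). The sinusoidal level was 5.19-fold that of vein and artery cells (3.65 to 7.64).

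Stellate cells, the vitamin A-storing pericytes of the sinusoid, followed the cells of both endothelial gates among classes of 20 or more cells, with Pros1 at 186 CPM (178 to 194) in 1964 UMIs, with a UMI in 57.9% of cells. Per 1000 UMIs of the 3 endothelial genes they held 335 Pros1 UMIs, against 51.0 in sinusoidal endothelial cells. The 17 lymphatic endothelial cells held 35 Pros1 UMIs, 351 CPM (244 to 488). In the 140 stellate cells without endothelial UMIs Pros1 was at 179 CPM (145 to 219), about as high as in the whole class. Portal fibroblasts reached 133 CPM (105 to 165) and Kupffer cells 67.0 CPM (62.4 to 71.8), with 69.1 CPM in the 994 Kupffer cells without endothelial UMIs. The cells chosen this way were shallower than their classes. Medians were 3797.5 against 5009 UMIs for stellate and 2891 against 4059 UMIs for Kupffer cells. The part of RNA from outside the cell in these Pros1 levels was not tested.

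In mesothelial cells, where Gas6 was highest, Pros1 was at 10.9 CPM (18 UMIs), and in cholangiocytes at 27.3 CPM (36 UMIs). The mesothelial Pros1 level was 39.4-fold lower than the sinusoidal one. Hepatocytes, the textbook source of plasma protein S, held 15 Pros1 UMIs, 23.0 CPM (12.9 to 37.9), with a UMI in 12 of 75 cells. The 75 hepatocytes had a median of 3659 UMIs and a median mitochondrial share of 8.21%, the highest of the gated classes. T cells held 1 Pros1 UMI (1.99 CPM).

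The receptor Axl was highest in Kupffer cells, at 8654 UMIs, 725 CPM (710 to 741), with a UMI in 85.0% of cells. Portal fibroblasts were second at 575 CPM (517 to 638) with a UMI in 74 of 85 cells. The Kupffer level was 1.26-fold the portal fibroblast level (1.13 to 1.41). Mesothelial and stellate cells followed with overlapping intervals, at 63.3 CPM (51.8 to 76.7) and 60.7 CPM (56.1 to 65.6).

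Axl was low in the endothelium, within the interval of the T-cell level, which rests on 3 UMIs and is wide. Sinusoidal endothelial cells held 132 Axl UMIs, 10.0 CPM (8.36 to 11.9), with a UMI in 5.26% of cells, and T cells 3 UMIs, 5.98 CPM (1.23 to 17.5), with a UMI in 2.34%. Cholangiocytes held 4 Axl UMIs (3.03 CPM) and hepatocytes 4 (6.13 CPM). Among classes under 20 cells, the 15 smooth muscle cells held 29 Axl UMIs (285 CPM) and the 15 monocytes 17 (193 CPM).

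Mertk was shared by 2 classes. Kupffer cells held 4745 Mertk UMIs, 398 CPM (386 to 409), with a UMI in 71.9% of cells, and sinusoidal endothelial cells 3722, 282 CPM (273 to 291), with a UMI in 70.1%. In sinusoidal cells without any UMI of a Kupffer gate marker other than Fcna or of C1qa, C1qb and C1qc (1076 cells), Mertk was at 272 CPM (258 to 287). Per 1000 C1q UMIs there were 32.4 Mertk UMIs in Kupffer cells and 3897 in sinusoidal endothelial cells. The 1076 cells were shallower than their class, with a median of 4572 against 5015.5 UMIs. The part of RNA from outside the cell in this Mertk level was not tested.

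Outside these classes Mertk fell off in steps. It was at 106 CPM (84.8 to 131) in cells of both endothelial gates, at 59.8 CPM (55.3 to 64.7) in stellate cells and at 45.2 CPM (26.3 to 72.4) in vein and artery endothelial cells, where the last 2 intervals overlap. Stellate cells without endothelial UMIs held 50.4 CPM (33.2 to 73.3). Portal fibroblasts, with their high Axl, held 6 Mertk UMIs (9.70 CPM), so Axl and Mertk were both high in the Kupffer gate, Axl without Mertk in portal fibroblasts and Mertk without Axl in sinusoidal endothelium. Monocytes, neutrophils and B cells held 0 Mertk UMIs, which at their depths allows up to 34.0, 45.6 and 46.6 CPM.

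Tyro3 was scarce everywhere. The table held 42 Tyro3 UMIs in the kept cells of replicate 1 and 11 in replicate 2. T cells held 5 UMIs (9.97 CPM, 3.24 to 23.3), cholangiocytes 5 (3.78 CPM, 1.23 to 8.83), sinusoidal endothelial cells 15 (1.14 CPM) and stellate cells 11 (1.04 CPM). Kupffer cells held 0 Tyro3 UMIs of 11930441, which allows up to 0.251 CPM. The intervals of neighbouring classes overlap, so no order is read from Tyro3.

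Timd4 was almost confined to one class. Kupffer cells held 6919 Timd4 UMIs, 580 CPM (566 to 594), with a UMI in 80.2% of cells (78.6 to 81.8). Sinusoidal endothelial cells held 41 (3.11 CPM), stellate cells 17 (1.61 CPM), mesothelial cells 3, hepatocytes 3 and T cells 1. Per 1000 C1q UMIs there were 47.2 Timd4 UMIs in Kupffer cells and 42.9 in sinusoidal endothelial cells, a nearly equal ratio, against 22.9 in stellate cells. In the 1076 sinusoidal cells without Kupffer UMIs Timd4 was nevertheless at 3.20 CPM (16 UMIs, 1.83 to 5.19), about the class level. The source of the endothelial Timd4 molecules was not tested. The 15 monocytes held 1 Timd4 UMI.

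**Figure D1:**
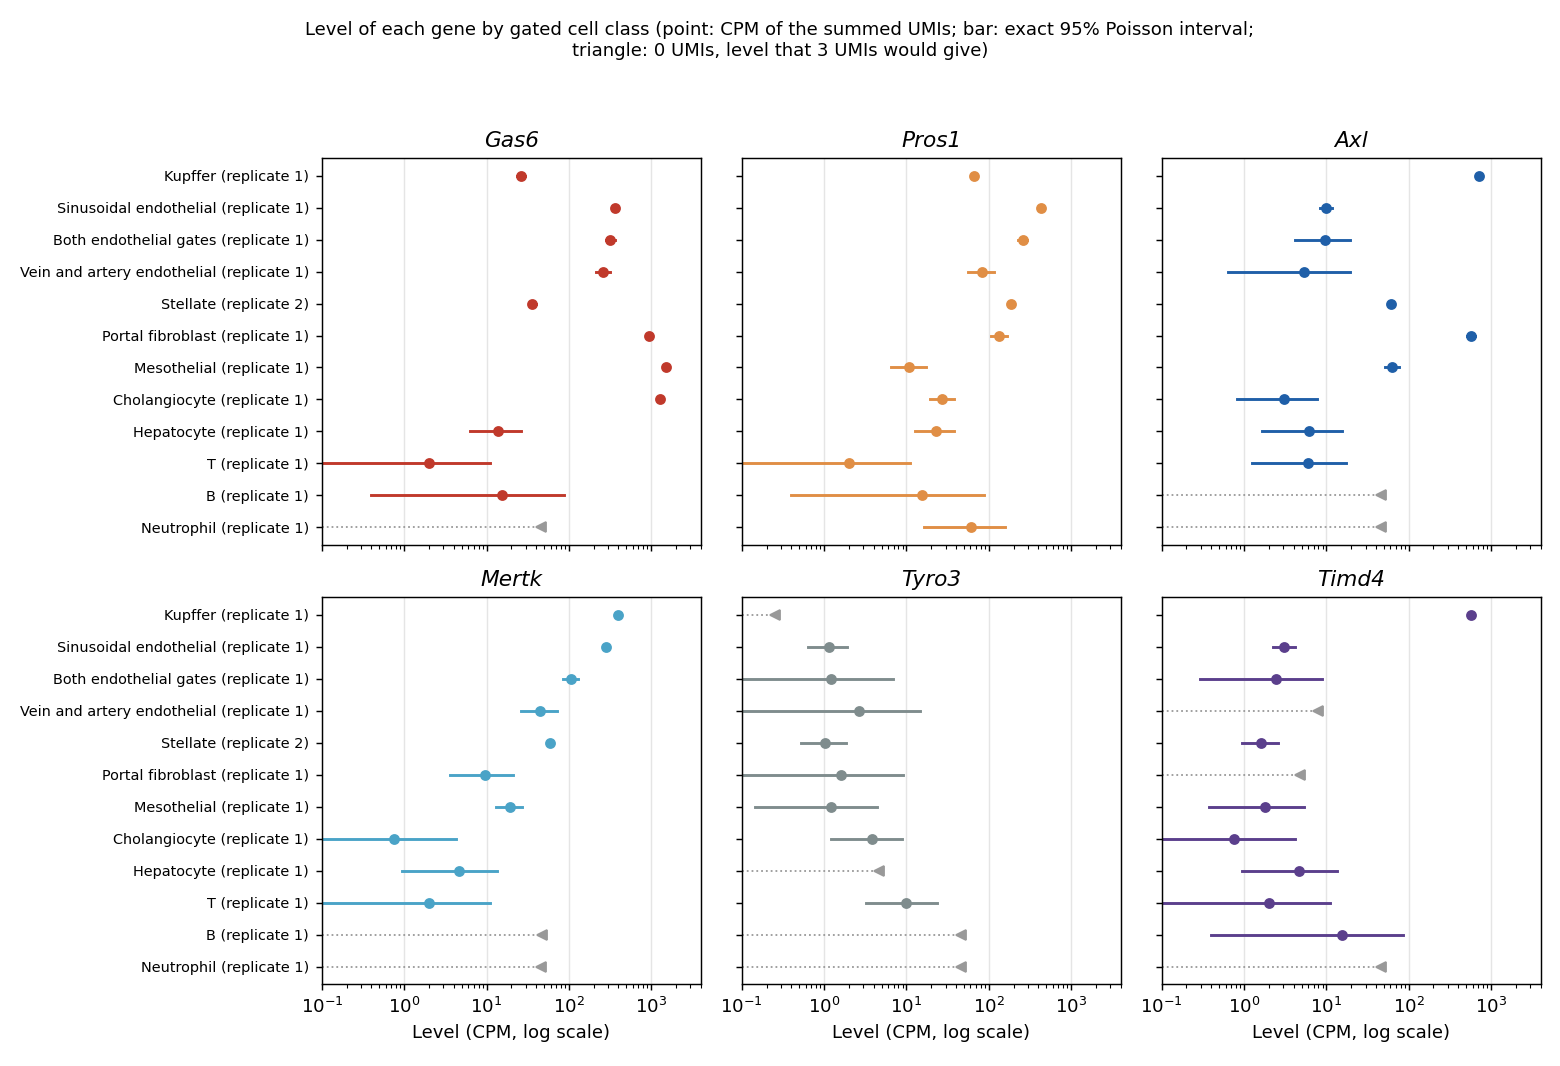
Level of each of the 6 genes in 12 gated classes, in CPM on a log axis, with exact 95% Poisson intervals (cut at the left edge of 0.1 CPM); a triangle marks a class with 0 UMIs at the level that 3 UMIs would give. Gas6 peaks in mesothelial cells (1533 CPM) and cholangiocytes (1285 CPM), Pros1 in sinusoidal endothelium (428 CPM), Axl in Kupffer cells (725 CPM) and portal fibroblasts (575 CPM), Mertk in Kupffer (398 CPM) and sinusoidal endothelial cells (282 CPM), and Timd4 in Kupffer cells alone (580 CPM).

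Set directly against sinusoidal endothelial cells of the same library, Kupffer cells had more Axl, Mertk and Timd4 and less Gas6 and Pros1. Axl was 72.6-fold higher in Kupffer cells (61.1 to 86.8), Timd4 187-fold higher (138 to 261) and Mertk 1.41-fold higher (1.35 to 1.47). Gas6 was 13.7-fold lower in Kupffer cells, a ratio of 0.0731 (0.0650 to 0.0819), and Pros1 6.39-fold lower, a ratio of 0.157 (0.145 to 0.169). Tyro3 had 0 UMIs against 15. With 3 UMIs in place of 0 its ratio was 0.221 (0.0411 to 0.782), and in cells without UMIs of the other class the interval included no difference.

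Stellate cells of replicate 2 were compared with sinusoidal endothelial cells of replicate 1. Gas6 was 10.0-fold lower in the stellate class, a ratio of 0.0997 (0.0896 to 0.111), Mertk 4.71-fold lower, a ratio of 0.212 (0.195 to 0.231), and Pros1 2.30-fold lower, a ratio of 0.434 (0.412 to 0.457). Axl was 6.07-fold higher (5.03 to 7.38). Of the 8 stellate cells of replicate 1, 3 held Gas6 (7 UMIs, 115 CPM, 46.4 to 238) and 4 held Pros1 (15 UMIs, 247 CPM, 138 to 408), few cells for a level. The deepest of these 8 cells held 33287 of their 60676 UMIs. A single cell held 4 of the 7 Gas6 UMIs, and a single cell held 10 of the 15 Pros1 UMIs. The ratio of replicate 2 over replicate 1 was 0.313 for Gas6 (0.150 to 0.784) and 0.751 for Pros1 (0.454 to 1.34). These intervals leave out the spread between cells, so no difference between libraries is read from them.

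**Figure D2:**
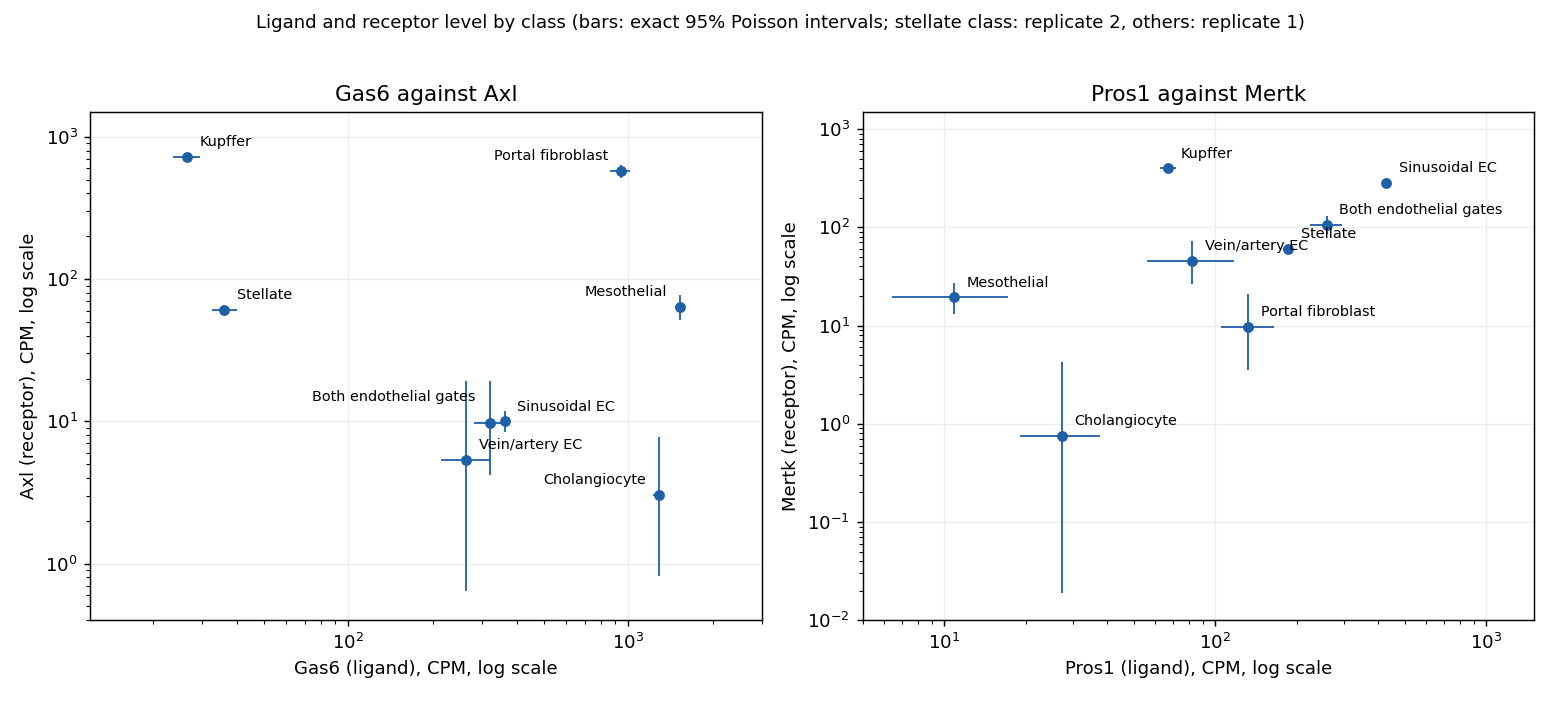
Gas6 against Axl (left) and Pros1 against Mertk (right) in 8 classes, in CPM on log axes, with exact 95% Poisson intervals. Kupffer cells lie at low ligand and high receptor, cholangiocytes at high Gas6 (1285 CPM) and low Axl (3.03 CPM), portal fibroblasts high in both Gas6 and Axl, and sinusoidal endothelial cells high in both Pros1 and Mertk.

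The share of a library's UMIs says where the molecules of a gene lay, which depends on how many cells of each class were captured. In replicate 1 sinusoidal endothelial cells, 35.4% of the cells, held 37.3% of the Gas6 UMIs (36.4 to 38.1) and 72.6% of the Pros1 UMIs (71.6 to 73.6). Mesothelial cells, 1.77% of the cells, held 19.8% of the Gas6 UMIs, and cholangiocytes, 1.27% of the cells, held 13.2%. Kupffer cells, 37.1% of the cells, held 2.46% of the Gas6 UMIs, 10.3% of Pros1, 89.0% of Axl, 51.2% of Mertk and 97.5% of Timd4. Portal fibroblasts, 1.26% of the cells, held 3.66% of the Axl UMIs.

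**Figure D3:**
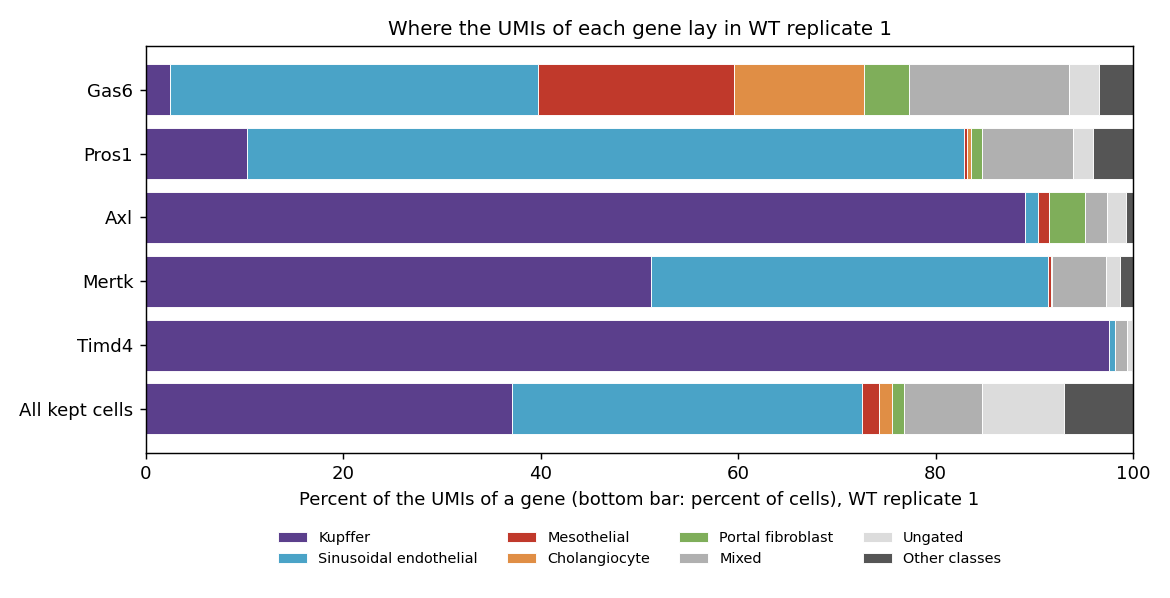
Percent of the UMIs of each gene except Tyro3 in WT replicate 1 that lay in each class, with the percent of cells in the bottom bar; mixed, ungated and other cells are in shades of grey. Gas6 is spread over several classes, with 37.3% in sinusoidal endothelium, whereas 89.0% of Axl and 97.5% of Timd4 UMIs lie in the Kupffer gate.

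Depth moved the shares of cells with a UMI, so cells were also thinned to 1000 UMIs each. At this depth Axl was found in 51.1% of 2307 Kupffer cells (49.0 to 53.1), Timd4 in 43.7% (41.7 to 45.7) and Mertk in 31.3% (29.4 to 33.2), with 202 shallower Kupffer cells left out. Mertk was found in 23.9% of 2363 sinusoidal endothelial cells (22.2 to 25.7), Pros1 in 35.5% and Gas6 in 27.9%, with 33 cells left out. In stellate cells Pros1 was found in 17.4% of 2088, Axl in 5.80% and Gas6 in 3.02%. Of 127 thinned T cells, 2 held Axl, 1 held Mertk and 2 held Tyro3. None held Gas6, Pros1 or Timd4, which allows a share of up to 2.36%.

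The unthinned shares rose with depth in a class. Among Kupffer cells of 500 to 1000 UMIs Axl was seen in 37.1%, Timd4 in 31.2% and Mertk in 20.8%, and among those of 8000 to 16000 UMIs in 99.5%, 98.6% and 96.8%. Over the 5 depth groups the level ranged from 628 to 784 CPM for Axl, 540 to 598 CPM for Timd4 and 299 to 425 CPM for Mertk. Gas6 in Kupffer cells was at 65.1 CPM (31.2 to 120) in the shallowest group, from 10 UMIs, and between 16.9 and 28.8 CPM in the others. The share of Kupffer cells without a Timd4 UMI was thus largest among shallow cells. Gas6 in Kupffer cells reached 13.2% of cells at the highest depth.

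**Figure D4:**
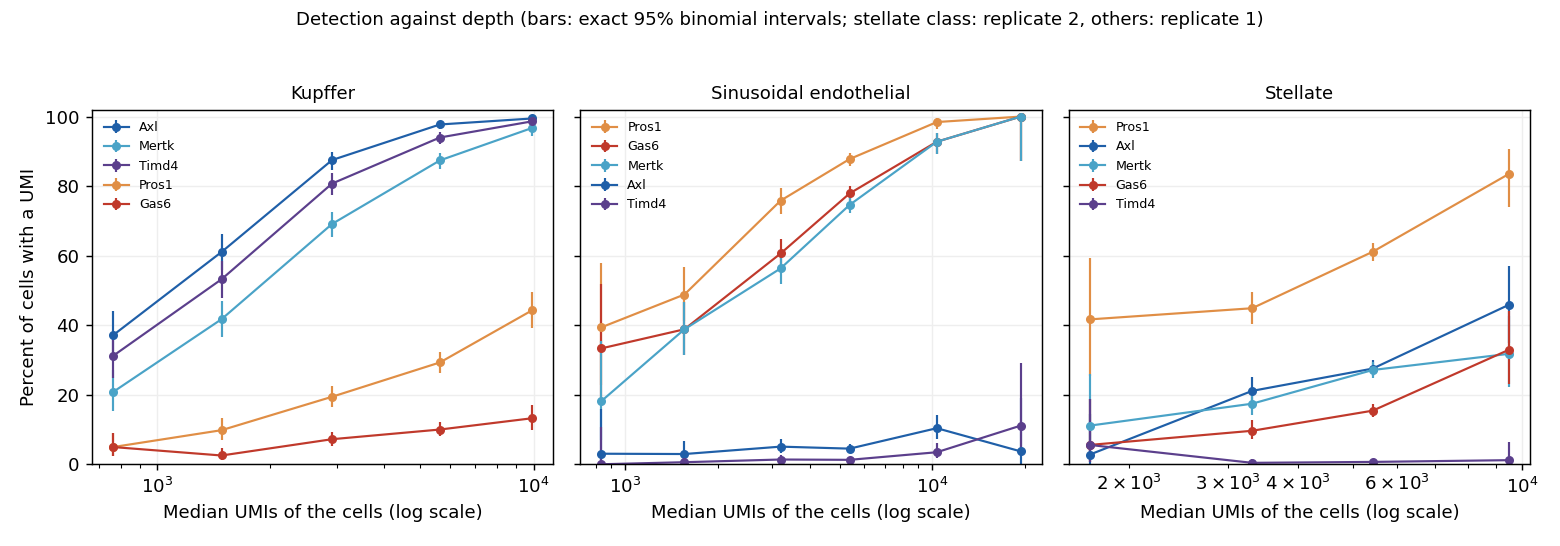
Percent of cells with a UMI of each gene except Tyro3 against the median UMIs, on a log axis, of cells grouped by depth, in the Kupffer, sinusoidal endothelial and stellate gates, with exact 95% binomial intervals. In Kupffer cells Axl, Timd4 and Mertk reach 99.5%, 98.6% and 96.8% in the deepest group, while Gas6 reaches 13.2%.

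Within the Kupffer gate, cells were also split by whether they held a Timd4 UMI. Timd4 was seen in 98.6% of Kupffer cells of 8000 to 16000 UMIs. The split therefore could not tell cells that lack Timd4 from cells where it was missed. TAM receptor levels in the groups are given as description only. The 2013 cells with Timd4 had a median of 4757 UMIs and the 496 cells without it 1562.5. Axl was at 728 CPM with Timd4 and 699 CPM without it, a ratio of 1.04 (0.966 to 1.12), and Mertk at 401 and 369 CPM, a ratio of 1.09 (0.979 to 1.21). At 1000 UMIs per cell (1008 cells with Timd4, 1299 without) the Axl ratio was 1.01 (0.919 to 1.12) and the Mertk ratio 1.14 (1.0001 to 1.31). The Kupffer markers Clec4f and Cd5l differed after thinning by 1.08-fold (1.04 to 1.12) and 1.05-fold (1.02 to 1.08). The monocyte receptor gene Ccr2 had 32 and 6 UMIs in the unthinned groups, 2.94 and 5.67 CPM, a ratio of 0.519 (0.214 to 1.52). After thinning it had 5 and 3 UMIs, 4.96 and 2.31 CPM, so no direction is read from it. Gas6 was at 26.5 CPM in both unthinned groups and, after thinning, at 36.7 CPM with Timd4 and 20.8 CPM without it, a ratio of 1.77 (1.05 to 3.02).

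Axl and Mertk were often found in the same Kupffer cell, where each was also common singly, in 85.0% and 71.9% of cells. Of 2509 Kupffer cells 65.8% (63.9 to 67.7) held both Axl and Mertk, 59.1% held Axl, Mertk and Timd4, and 5.30% held none of these 3. After thinning, 15.6% held Axl and Mertk together, while 51.1% held Axl and 31.3% held Mertk. Of 2396 sinusoidal endothelial cells 60.9% (58.9 to 62.9) held Pros1 and Mertk, 54.2% Gas6 and Mertk and 48.2% all 3. Thinned values were 8.00%, 7.49% and 2.67%. Whether any of these genes shared cells more often than their single shares would give was not tested.

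A UMI of both Gas6 and Axl was found in 49 of 85 portal fibroblasts (57.6%, 46.4 to 68.3), and 3 cells held neither. Singly, Gas6 was found in 67.1% and Axl in 87.1% of these cells. Whether the 2 genes shared cells more often than these shares alone would give was not tested. In mesothelial cells 46 of 120 (38.3%, 29.6 to 47.6) held both. After thinning, 7 of 85 portal fibroblasts and 3 of 120 mesothelial cells did. In cholangiocytes 4 of 86 cells held both, and in Kupffer cells 7.69% (6.68 to 8.81) did. A UMI of a secreted ligand and of a receptor in 1 droplet shows RNA of both in that droplet.

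Gas6 differed along the sinusoid by landmark genes outside the set. Endothelial cells were split by UMIs of central landmarks (Rspo3, Wnt9b, Wnt2, Kit) and portal landmarks (Efnb2, Dll4, Ntn4, Msr1). Among sinusoidal endothelial cells Gas6 was at 539 CPM in 879 central cells and 245 CPM in 1363 portal cells, a ratio of 2.20 (2.07 to 2.34), with medians of 5065 and 5112 UMIs. Leaving out each landmark in turn gave ratios of 2.003 to 2.31. Pros1 was nearly even, at 454 and 409 CPM, a ratio of 1.11 (1.05 to 1.17), and so was Mertk, at 286 and 275 CPM, a ratio of 1.04 (0.970 to 1.11).

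Cells in both endothelial gates had a wider split. Gas6 was at 663 CPM in 39 central cells and 133 CPM in 43 portal cells, a ratio of 4.97 (3.77 to 6.62), with a range of 4.21 to 4.97 when a landmark was left out. The Pros1 ratio was 0.986 (0.733 to 1.32) and the Mertk ratio 1.07 (0.669 to 1.68). The groups differed in depth, with medians of 6584 and 10288 UMIs, and the part of depth in the Gas6 split was not tested. Axl in sinusoidal cells stood at 14.2 against 7.22 CPM (69 and 56 UMIs), a ratio of 1.97 (1.36 to 2.85). Both levels lie within the interval of its T-cell level (1.23 to 17.5), which rests on 3 UMIs.

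In stellate cells, split in the same way by the portal landmarks Il34, Igfbp3, Itgb3 and Ngfr and the central landmarks Spon2, Podn, Loxl1 and Adamtsl2, the Gas6 ratio was smaller than in the endothelium. Gas6 was at 44.8 and 30.8 CPM, a ratio of 1.45 (1.17 to 1.80), Axl at 68.6 and 56.9 CPM, a ratio of 1.21 (1.02 to 1.42), Pros1 at 177 and 194 CPM, a ratio of 0.912 (0.830 to 1.002), and Mertk at 58.9 and 57.7 CPM. Tyro3 had 1 UMI in central and 9 in portal stellate cells, a ratio of 0.121 (0.00276 to 0.873).

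**Figure D5:**
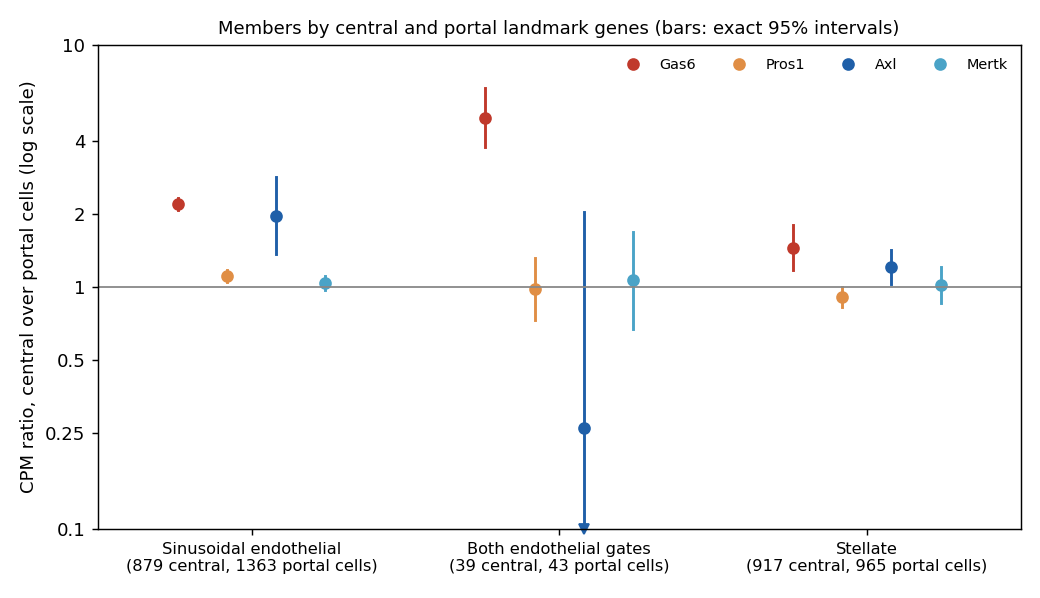
Ratio of the CPM in cells with more central landmark UMIs over that in cells with more portal ones, on a log axis, for Gas6, Pros1, Axl and Mertk in 3 classes, with exact 95% intervals; the arrow marks an interval that goes below 0.1. The Gas6 ratio is 2.20 in sinusoidal endothelial cells, 4.97 in cells of both endothelial gates and 1.45 in stellate cells, while Mertk stays near 1 in all 3.

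For each class a gene was called when it was at least 2-fold higher or lower than the mean of the other classes, with at least 50 UMIs over the classes. A fold of a class with 0 UMIs was computed against 3 counts. Tyro3 fell under this minimum, so 5 of the 6 genes were read. In Kupffer cells 3 were higher (Axl 10.7-fold, Mertk 8.47-fold, Timd4 192-fold), where 13.04% of all genes tested were, and Gas6 was lower, where 32.2% were. In sinusoidal endothelial cells Pros1 (6.30-fold) and Mertk (4.82-fold) were higher against 14.8% of all genes, and Axl and Timd4 were lower against 25.2%. In stellate cells none was higher, where 11.8% were, and Gas6, Axl and Timd4 were lower, where 25.5% were. In mesothelial cells Gas6 was higher (4.75-fold, against 12.8% of all genes) and the other 4 lower (against 24.96%), and in cholangiocytes Gas6 was again higher (3.70-fold, 17.6%) and the other 4 lower (23.5%). In portal fibroblasts Gas6 (2.46-fold) and Axl (6.94-fold) were higher, against 12.6%, and Mertk and Timd4 lower, against 22.8%. In cells of both endothelial gates Pros1 was higher (3.04-fold, 12.6%) and Axl and Timd4 lower (21.4%).

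The wider pathway was read in 8 lists of genes around the 6, of which 84 of 86 genes are in the table. Each count of genes called is to be read against the shares of all genes given above, 13.04% higher and 32.2% lower in Kupffer cells, 14.8% and 25.2% in sinusoidal endothelial cells and 11.8% and 25.5% in stellate cells. The carboxylation that both ligands need is carried out by Ggcx with vitamin K recycled by Vkorc1. Of 6 genes of this vitamin K cycle none was higher in any of the 3 main classes, and 2 were lower in Kupffer cells, 1 in sinusoidal endothelial cells and 1 in stellate cells. The medians of the log2 folds were -0.71, -0.22 and -0.05, against -0.35, 0.0046 and -0.09 over all genes tested. Ggcx was at 22.4 CPM in stellate, 16.4 in sinusoidal endothelial and 6.79 in Kupffer cells, and Vkorc1 at 124, 54.2 and 51.0 CPM.

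Other bridging proteins split by class. In Kupffer cells 4 of 8 tested were higher and 3 lower (median log2 fold 1.23). The complement chains C1qa, C1qc and C1qb, which also tag dying cells, were 241-fold, 215-fold and 178-fold higher at 4922, 4126 and 3246 CPM. Lgals3, which codes for galectin-3, was 6.21-fold higher at 524 CPM. In sinusoidal endothelial cells none was higher and 6 were lower, and in stellate cells 1 was higher and 5 were lower.

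Among the other receptors for phosphatidylserine and dying cells, 7 of 14 were higher and 3 lower in Kupffer cells (median log2 fold 1.24). The inhibitory receptor Cd300a was 18.4-fold higher at 328 CPM, the lipopolysaccharide co-receptor Cd14 15.4-fold at 975 CPM and the integrin chain Itgb5 7.06-fold at 280 CPM. Sinusoidal endothelial cells had 5 higher and 7 lower, led by the scavenger receptor Stab1 at 8.90-fold and 952 CPM. Stellate cells had 3 higher and 7 lower. The lipoprotein receptor Scarb1 was higher in both the Kupffer (3.27-fold) and the sinusoidal endothelial gate (2.59-fold).

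Genes for lipid exposure and engulfment went in both directions. Of 8 exposure genes, 2 were higher in Kupffer cells (Atp8a1, a flippase, 4.69-fold at 170 CPM, and Ano6, a scramblase, 3.34-fold at 147 CPM), 2 in sinusoidal endothelial cells and 1 in stellate cells (Plscr1, 3.94-fold at 106 CPM), with 2, 2 and 1 lower. Cholangiocytes held more Plscr1 than stellate cells, at 133 CPM. In sinusoidal endothelial cells Xkr8, the caspase-activated scramblase gene, was 3.72-fold higher at 7.57 CPM. Of 13 engulfment genes, 4 were higher and 1 lower in Kupffer cells, 2 higher and 4 lower in sinusoidal endothelial cells, and none higher and 5 lower in stellate cells. Ucp2, a mitochondrial carrier tied to the capacity for engulfment, was 5.28-fold higher in Kupffer cells at 1075 CPM, and Elmo2 2.89-fold at 55.7 CPM. Dock1, the partner of the Elmo proteins, was 3.86-fold higher in sinusoidal endothelial cells at 125 CPM, and the adaptor Crk 2.67-fold at 256 CPM. In the same cells Elmo1 was 49.1-fold lower at 0.909 CPM and Dock2 63.0-fold lower at 1.36 CPM.

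Shedding and feedback genes were higher in Kupffer cells for 4 of 9 tested and lower for 3, the latter a share of 33.3% against 32.2% of all genes. Adam17, the protease that cleaves Mertk, was 5.82-fold higher at 195 CPM, and the adaptor Grb2 3.84-fold at 417 CPM. Twist1, a repressor of inflammatory genes induced downstream of Axl, was 8.25-fold higher in sinusoidal endothelial cells at 118 CPM and stood at 1.68 CPM in Kupffer cells. Sinusoidal endothelial cells had 2 higher and none lower, and stellate cells 1 higher and 4 lower of 10.

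Nuclear receptors that respond to engulfed lipid, with their targets, were higher in Kupffer cells for 6 of 10 and lower for none (median log2 fold 2.33). Spic, a transcription factor of heme-handling macrophages, was 293-fold higher at 209 CPM, Nr1h3, which codes for LXR-alpha and is an activator of Mertk, 42.0-fold at 660 CPM, and the cholesterol exporter Abca1 13.1-fold at 826 CPM. In sinusoidal endothelial cells, which shared Mertk, Nr1h3 stood at 4.92 CPM and was 16.5-fold lower. Nr1h2, the other LXR gene of the list, was at 48.2 CPM there and 42.0 CPM in Kupffer cells, and was called in neither. Mylip, the LXR target that degrades the LDL receptor, was 6.72-fold higher in sinusoidal endothelial cells, at 765 CPM. Sinusoidal endothelial cells had 2 of 10 higher and 2 lower, and stellate cells 2 higher and 3 lower.

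Clotting partners of protein S were divided between the endothelium and hepatocytes. Of 8 genes tested, F8 (8.43-fold, 921 CPM) and Tfpi (7.21-fold, 331 CPM) were higher in sinusoidal endothelial cells and 5 were lower. F8 codes for coagulation factor VIII, whose active form is a substrate of the protein C and protein S complex, and Tfpi for the inhibitor that protein S assists. Proc, the gene of protein C, was highest in hepatocytes, at 271 CPM against 3.18 CPM in sinusoidal endothelial cells. F5, C4bp and Serpinc1 were also highest in hepatocytes, at 187, 394 and 1307 CPM, against 1.89, 5.23 and 13.3 CPM in sinusoidal endothelial cells. Kupffer and stellate cells had none higher and 7 lower each. The thrombomodulin gene Thbd was at 265 CPM in sinusoidal endothelial cells, 551 CPM in cells of both endothelial gates and 78.2 CPM in Kupffer cells.

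The genes most like each of the 6 across the 12 classes were found by Pearson's r of log2(CPM + 1), a description over points that share 2 libraries and differ in depth. For Gas6 they were Txndc17 (r = 0.94), Dcaf4 (0.93) and Nhsl1 (0.92), for Pros1 Tcf4 (0.91), Rab3il1 (0.89) and Bmp2 (0.89), and for Axl Ifi211 (0.94), Lrp12 (0.93) and Abca9 (0.92). For Mertk they were Kcnk6 (0.96), Lgmn (0.94) and Gm11772 (0.94), and for Timd4 Pld4 (0.95), the gate marker Folr2 (0.94) and C1qa (0.93). The Tyro3 neighbours Aak1 (0.91), Gm2810 (0.91) and D730045B01Rik (0.90) rest on a few Tyro3 molecules. Among the 6 genes themselves the highest r were 0.63 for Pros1 with Mertk and 0.61 for Axl with Mertk, and Gas6 with Axl had 0.39.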

How the data were processed

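The authors deposited 1 table of raw UMI counts of both samples, made with Cell Ranger 2.1.1, Seurat 3.1 and GRCm38 per the submitters' processing notes; their order, settings and cell calling are not given in the sources used here. The number ending each barcode was read as the replicate number. Replicate 1 held 40645060 UMIs in 7362 cells and replicate 2 held 11867207 in 2341. Filtering on 200 or more detected genes and a mitochondrial share up to 20% left 6765 and 2341 cells. A class needed UMIs of at least 3 markers, at least 5 marker UMIs, and 75% of a cell's marker UMIs; for hepatocytes all 6 markers and 5% of all UMIs. Of 88 markers 87 are in the table. Cells that passed a gate without a class at 75% of their marker UMIs were called mixed and left out, except those of both endothelial gates. This stands in for doublet removal, and no caller was used in the reported values. Free RNA was not subtracted.

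UMIs were summed per class and scaled to CPM (Python 3.11.15, numpy 2.4.6, scipy 1.17.1, scanpy 1.11.5). Intervals are exact Poisson for levels, Clopper-Pearson for shares, and binomial conditional on the sum for ratios; UMI counting error only. For ratios a 0 counts as 3, and none is given with at most 3 UMIs on both sides. The fold calls were tested on simulated data. Genes named from lists were up to 4 per list with the largest fold, and 3 per member by correlation; others named were chosen after their values were seen, and some list genes are not reported here. The 6 genes and all lists were chosen with earlier results of these data known.

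Alternatives were other cell filters, gates, thinning, Scrublet scores, mean CPM of single cells, and for the lists another comparator and a lower minimum. Leaving Fcna out of the gates and using only cells without UMIs of the other class were chosen after seeing the data. Promoter sequences were taken from RefSeq for all 6 genes.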

Additional observations from a re-analysis of the deposited data

Results flagged for a closer look

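Cells that entered no comparison also held these genes, above the T-cell level of 1.99 CPM that Gas6, Pros1 and Mertk share in replicate 1. For the mixed cells of replicate 2 this level comes from the other library. In replicate 1 the 531 mixed cells held Gas6 at 551 CPM, Pros1 at 191 CPM and Mertk at 134 CPM, and the 566 ungated cells, with a median of 1533.5 UMIs, held Gas6 at 193 CPM. In replicate 2 the 252 mixed cells held Pros1 at 189 CPM. Of the mixed cells of replicate 1, 193 carried mostly sinusoidal with vein and artery markers (Gas6 420 CPM), 22 mesothelial with portal fibroblast markers (Gas6 981 CPM) and 18 cholangiocyte with hepatocyte markers (Gas6 1312 CPM).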

How the results depend on the processing

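Of 108 recomputed log2 ratios of Kupffer or stellate over sinusoidal endothelial cells, 108 kept the sign reported. Ratios where a 0 left the direction unset gave no value and are not among them. The stellate Tyro3 ratio, 0.915 (0.380 to 2.13), is counted although its interval includes no difference. For Gas6 in Kupffer cells (-3.77) the stricter gate gave -4.12, the looser gate -3.35, leaving out the highest 5% of Scrublet scores -4.17 and cells without UMIs of the other class -3.95. Thinning to 1000 UMIs gave, for Kupffer cells, Pros1 -2.79, Axl 5.90, Mertk 0.43 and Timd4 6.70, and for stellate cells Gas6 -3.51 and Axl 2.27. For stellate cells the stricter gate gave Gas6 -3.78 and Mertk -2.36, and cells without endothelial UMIs Gas6 -3.79 and Mertk -2.48. With the 8 stellate cells of replicate 1 in place of those of replicate 2, Gas6 was -1.65, Pros1 -0.79, Axl 2.31 and Mertk -1.29, and Tyro3 and Timd4, with 0 UMIs there, gave no value. The cause of these shifts was not tested. Against the highest other class in place of the mean, list genes called higher and lower were 9 and 42 in Kupffer cells (27 and 21 against the mean), 0 and 60 in stellate cells (8 and 33), and 3 and 45 in sinusoidal endothelial cells (15 and 27). The share over all genes was not computed for this comparator, so these counts show only that the calls depend on it.

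Without Fcna, which stood at 2163 CPM in stellate and 1927 CPM in Kupffer cells, the stellate class of replicate 2 rose from 2088 to 2338 cells, and each ratio stayed within its reported interval. No paired analysis was possible because the results come from no test and no gated class had 20 cells in both samples. Each class rests on 1 library, Tyro3 is limited by depth (0 against 15 UMIs in Kupffer and sinusoidal cells, a log2 ratio of -2.18 with 3 for 0, and -1.13, -3.65 to 0.87, in cells without UMIs of the other class), and 3' counts do not tell isoforms or protein.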
